A study of Homo sapiens with 24 samples.

Results

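Gene expression was compared on customized PrimeView microarrays between untreated HGC-27 cells, an established line labelled gastric carcinoma, and untreated HCT-8 cells, an established line labelled colorectal adenocarcinoma. The members are the 3 control arrays of each line, chosen by the line and treatment in their labels, which are 6 of the 24 arrays of the series. The other 18 arrays hold melatonin-treated cells of both lines and treated and control cells of the Huh-7 and HepG2 liver cancer lines, and those of melatonin-treated HGC-27 and HCT-8 cells are used below as further samples of the lines. Both lines were grown in RPMI 1640 medium with 10% fetal bovine serum. The labels place the controls at 0 h of melatonin and the treated cells at 24 h, whereas the study's methods describe ethanol given to the controls at the same time. Each group is 1 line, and the study's methods describe its 3 arrays as biological replicates, without saying how the cultures were separated. The p-values measure the spread between these replicates of 1 line each, and not that between lines of a cancer type.

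Cells of the gut lining are epithelial. They are held together by E-cadherin, claudins and desmosomes, are stiffened by keratins 8, 18, 19 and 20, and take their intestinal identity from transcription factors such as CDX2. Cells of mesenchymal character lack these junctions, use vimentin filaments and secrete collagens. The passage from one state to the other in carcinoma, epithelial-mesenchymal transition, is driven by the ZEB, SNAI and TWIST factors, and ZEB and SNAI proteins are known to repress epithelial genes through E-boxes, which are short DNA words in promoters.

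HGC-27 and HCT-8 cells differed in most of these programs. In HGC-27 cells 24 of 35 junction genes, 8 of 19 keratins and 17 of 28 gut transcription factors were lower by at least 2-fold, while 17 of 30 mesenchymal markers, 12 of 25 collagen genes and 7 of 19 cancer-testis antigen genes were higher by as much. All levels are log2 intensities after the 6 arrays were brought to a common distribution by quantile normalization, and a difference is HGC-27 minus HCT-8, so 1 unit is 2-fold. Of 18265 genes, 11842 (64.8%) passed an adjusted p of 0.05 in limma, with 5788 (31.7%) higher and 6054 (33.1%) lower in HGC-27. Because so many passed, a gene is called below only where it also differed by at least 2-fold, which held for 3368 genes (18.4%), 1730 of them higher (9.47%) and 1638 lower (8.97%). Their largest adjusted p was 0.00256, and in each of the 3368 genes the arrays of the lines did not overlap, which held for 12635 of all genes (69.2%, with 33.5% higher and 35.6% lower). Counts of called members in a gene list are to be read beside the shares of all genes, 9.47% higher and 8.97% lower. Where a gene list is said to have no member in a direction, that is at 2-fold. This held for 19 pairs of a list and a direction, in which 0 to 5 members passed the adjusted p alone. A difference of 16-fold or more was found in 152 genes higher and 148 genes lower in HGC-27.

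**Figure D1:**
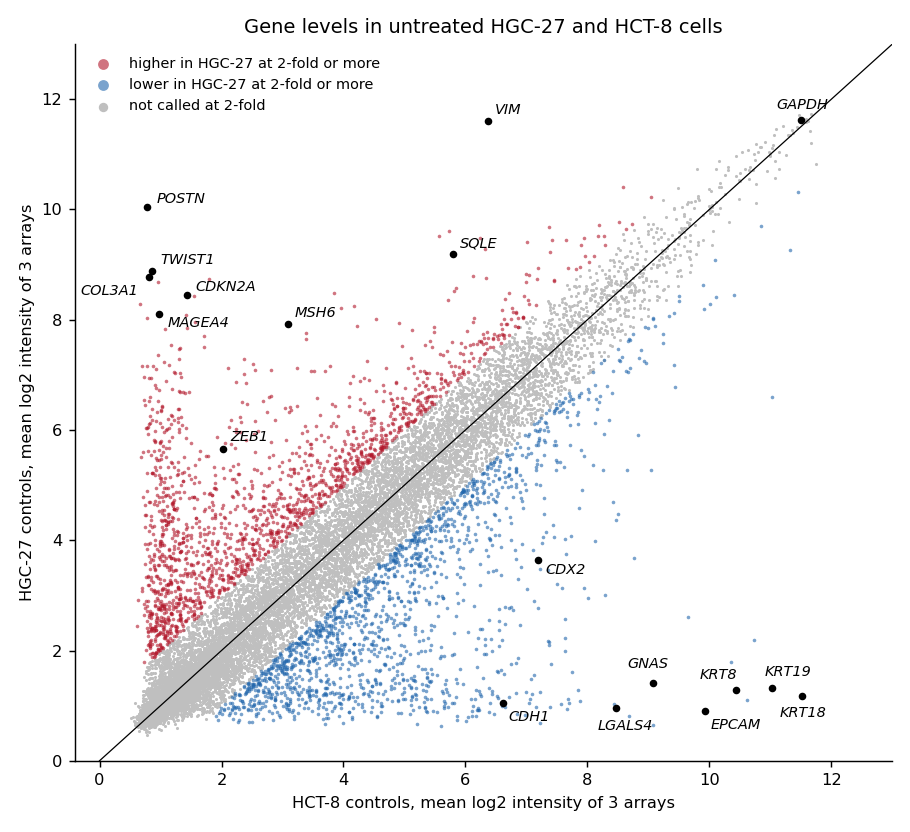
Mean log2 intensity of the genes in 3 HGC-27 control arrays (vertical axis) against 3 HCT-8 control arrays (horizontal axis), with the diagonal marking equal levels. Of the 18265 genes, those listed on the Y chromosome and XIST and TSIX are not drawn. Genes called at 2-fold or more are red where higher and blue where lower in HGC-27, and keratins, EPCAM, LGALS4 and GNAS lie along the bottom while POSTN, TWIST1 and COL3A1 lie along the left side.

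The deposited values differed in scale between the lines. The median deposited log2 intensity of an array lay between 2.98 and 3.0 in HGC-27 and between 2.13 and 2.14 in HCT-8, so the lines look normalized separately, and the line and its normalization cannot be told apart. Without the joint normalization the median gene was 0.49 higher in HGC-27 and the called genes were 85.2% higher ones, against 51.4% here. With the arrays centred on the probe sets of the ERCC spike-ins, which the labels describe as external RNA added by cell number and of which only 1 of 100 was bright enough to use, the median difference was -2.18 and 1.9% of the called genes were higher ones. Every direction below is therefore relative to the bulk of the genes, whose median difference was -0.02. The signs of ATR, BAX and MUC6 turned in the values as deposited, and those of B2M, CLDN15, COL1A2, DPYD, FN1, GAPDH, GATA4, HMGCS1, HOXB13, HOXC6, LSS, MYC, SREBF2 and TYMS turned with the ERCC centring. Other shares of higher genes were 34.5% against 48.9% among all genes past the adjusted p when arrays were centred on their median. The 3 arrays of HGC-27 correlated at 0.9987 or more and those of HCT-8 at 0.9966 or more across genes, while arrays of different lines correlated at 0.871 to 0.872. The ACTB 3' probe sets exceeded the 5' ones by 0.61 to 0.64 in HGC-27 and by 0.10 to 0.19 in HCT-8, a measure of RNA quality and labelling whose part in the results was not tested. No detection call was made, so a gene near the bottom of the scale cannot be told from background there, and its difference is one between intensities.

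Epithelial keratins were among the genes that differed most. KRT18 measured 1.15, 1.23 and 1.18 in HGC-27 and 11.52, 11.49 and 11.52 in HCT-8 arrays. KRT8, its filament partner, measured 1.28, 1.29 and 1.27 in HGC-27 and 10.46, 10.42 and 10.42 in HCT-8 arrays, and KRT19 measured 1.18, 1.43 and 1.33 in HGC-27 and 10.99, 11.04 and 11.06 in HCT-8 arrays. All 3 were among the brightest genes of HCT-8 and near the bottom of the scale in HGC-27, with differences of -10.33 ± 0.048, -9.16 ± 0.046 and -9.72 ± 0.069 (SE, adjusted p = 1.71e-12, 1.71e-12 and 5.61e-12 in limma). KRT20, the keratin of mature gut epithelium, averaged 1.27 in HGC-27 and 5.35 in HCT-8. In the list of 19 keratins 8 were lower and none was higher, and KRT7, KRT13, KRT14 and KRT15 made up the rest of the 8. The median difference of the list was -0.72.

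Epithelial junction genes were lower as a group. EPCAM, an adhesion protein of epithelial cells, measured 0.92, 0.93 and 0.88 in HGC-27 and 10.02, 9.86 and 9.9 in HCT-8 arrays. E-cadherin, CDH1, measured 1.05, 1.12 and 1.0 in HGC-27 and 6.58, 6.83 and 6.43 in HCT-8 arrays, a difference of -5.56 ± 0.10 (SE, adjusted p = 2.82e-10 in limma). Neither gene overlapped between the lines, and both were at the bottom of the scale in HGC-27. The claudins, which seal tight junctions, were less uniform: CLDN3 averaged 1.22 in HGC-27 and 6.24 in HCT-8, CLDN4 averaged 2.1 in HGC-27 and 7.36 in HCT-8 and CLDN7 averaged 3.13 in HGC-27 and 7.95 in HCT-8, so that CLDN7 kept a measurable level in HGC-27. CLDN15 was the only member called higher, at 3.75 in HGC-27 and 2.71 in HCT-8. The desmosome genes differed likewise, with PKP2 at 0.98 in HGC-27 and 6.64 in HCT-8 and DSP, which anchors keratins to the desmosome, at 3.83 in HGC-27 and 7.1 in HCT-8. Occludin, OCLN, averaged 1.15 in HGC-27 and 4.09 in HCT-8, and the polarity gene CRB3 averaged 2.73 in HGC-27 and 4.64 in HCT-8. In all, 24 of 35 junction genes were called lower and 1 higher, with a median difference of -2.55.

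N-cadherin, which often replaces E-cadherin in mesenchymal cells, was low in both lines. CDH2 measured 1.31, 1.35 and 1.18 in HGC-27 and 1.48, 1.31 and 1.58 in HCT-8 arrays, arrays that overlapped and a difference that did not pass (adjusted p = 0.0853 in limma). CDH6, a cadherin of the kidney and of mesenchymal cells, averaged 7.23 in HGC-27 and 1.06 in HCT-8.

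Regulators of the epithelial state were lower too. RBM47 and ESRP2, RNA-binding proteins that set epithelial splicing, averaged 1.2 in HGC-27 and 5.73 in HCT-8, and 1.43 in HGC-27 and 5.42 in HCT-8. The factor ELF3 averaged 1.44 in HGC-27 and 3.62 in HCT-8. Of 17 such regulators 9 were lower and none was higher, with a median difference of -1.14. Serine proteases and inhibitors of epithelia, some secreted and some anchored in the membrane, were lower in 10 of 14 cases and higher in none. The membrane-anchored inhibitor SPINT2 measured 2.6, 2.54 and 2.67 in HGC-27 and 9.64, 9.66 and 9.64 in HCT-8 arrays, and ST14, the protease matriptase that it inhibits, averaged 1.5 in HGC-27 and 6.29 in HCT-8. SLPI, a secreted inhibitor of elastase, averaged 1.76 in HGC-27 and 7.4 in HCT-8. S100 and annexin genes, which encode calcium-binding proteins, were lower in 12 of 25 cases and higher in none. S100A6 measured 1.14, 1.12 and 1.06 in HGC-27 and 10.6, 10.64 and 10.6 in HCT-8 arrays, and S100P averaged 1.79 in HGC-27 and 10.36 in HCT-8.

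**Figure D2:**
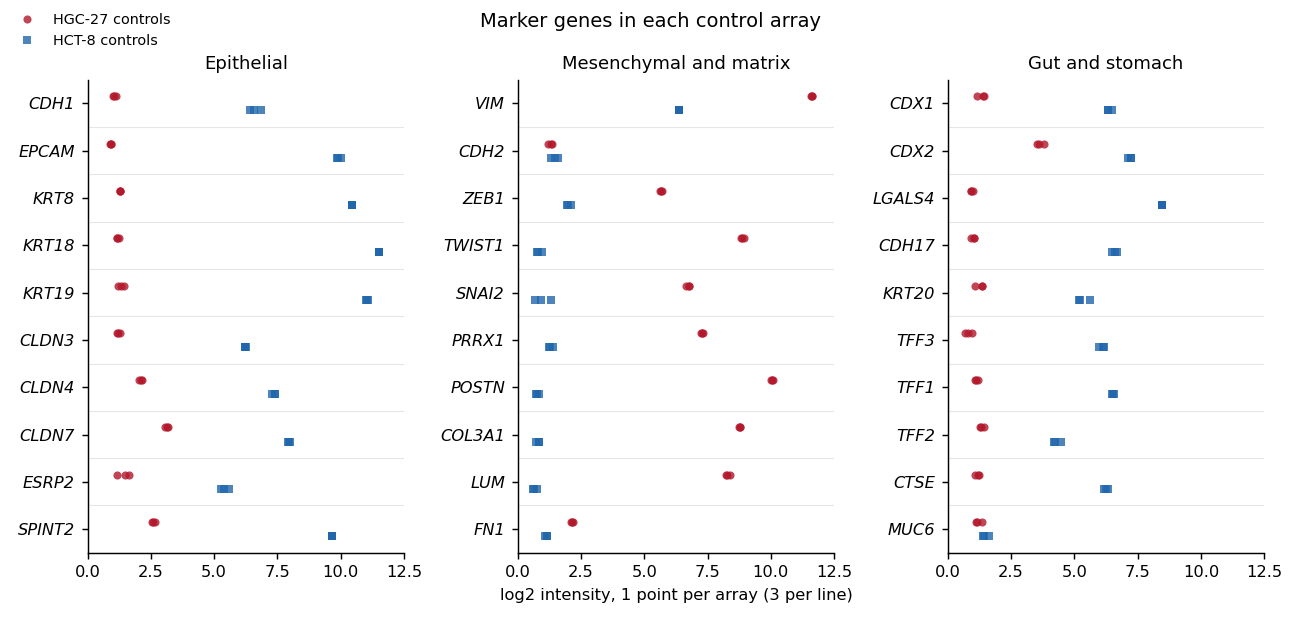
Log2 intensity (horizontal axis) of 30 marker genes in each of 3 HGC-27 (red circles) and 3 HCT-8 (blue squares) control arrays, 1 point per array. HGC-27 arrays lie left of HCT-8 for the epithelial genes and right for VIM, ZEB1, TWIST1, SNAI2, PRRX1, POSTN, COL3A1, LUM and FN1, while CDH2 and MUC6 sit low in both lines.

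The transcription factors that repress epithelial genes were high in HGC-27. TWIST1 measured 8.84, 8.93 and 8.87 in HGC-27 and 0.77, 0.81 and 0.98 in HCT-8 arrays. SNAI2 measured 6.76, 6.64 and 6.75 in HGC-27 and 0.93, 0.7 and 1.31 in HCT-8 arrays, and ZEB1 measured 5.63, 5.7 and 5.65 in HGC-27 and 2.0, 2.11 and 1.95 in HCT-8 arrays. The 3 factors were higher in every HGC-27 array than in any HCT-8 array, by 8.03 ± 0.065, 5.74 ± 0.14 and 3.64 ± 0.057 (SE, adjusted p = 8.08e-12, 1.88e-09 and 1.5e-10 in limma). PRRX1, a homeobox factor of mesenchyme, averaged 7.29 in HGC-27 and 1.3 in HCT-8, and its relative PRRX2 averaged 7.75 in HGC-27 and 3.39 in HCT-8. ZEB2 averaged 3.19 in HGC-27 and 0.8 in HCT-8, SNAI1 averaged 4.54 in HGC-27 and 2.5 in HCT-8 and TCF4 averaged 5.27 in HGC-27 and 2.58 in HCT-8. With these, 8 of 15 factors were higher and none was lower.

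Promoter sequences were read for the E-box that ZEB and SNAI proteins bind, CAGGTG or its reverse complement CACCTG, in the 250 bases before each start site (RefSeq, GRCh38.p14). Among genes with a promoter in the table, 41 of 106 genes lower in HGC-27 by 16-fold or more held the E-box (38.7%), as did 87 of 352 lower by 4 to 16-fold (24.7%) and 158 of 818 lower by 2 to 4-fold (19.3%). The share was 16.6% in genes not called, 16.8% over all 14510 genes, and 17.5% over all 27305 promoters of the table. Among higher genes it was 13.4% at 2 to 4-fold, 13.6% at 4 to 16-fold and 10.6% at 16-fold or more. The word CAGCTG, another E-box, which reads the same on both strands, had shares of 9.4% in genes lower by 16-fold or more and 8.7% in genes higher by 16-fold or more, against 13.4% in genes not called. The E-box CACGTG had shares of 8.5% and 3.8% at the same ends, against 7.7% in genes not called, and 6.8% to 10.4% in the bins between them. Among lower genes the share of the first E-box rose with the difference in promoters with GC content up to and above the median of 62.8%. There 32.1% and 46.0% of the genes lower by 16-fold or more held it. Among higher genes the shares, from 2 to 4-fold upward, had no steady trend. They were 13.5%, 8.9% and 9.8% up to the median GC, and 13.3%, 16.7% and 11.3% above it. The last of each rest on 5 of 51 and 6 of 53 promoters. A match is a word in the sequence and not a measured binding site.

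**Figure D3:**
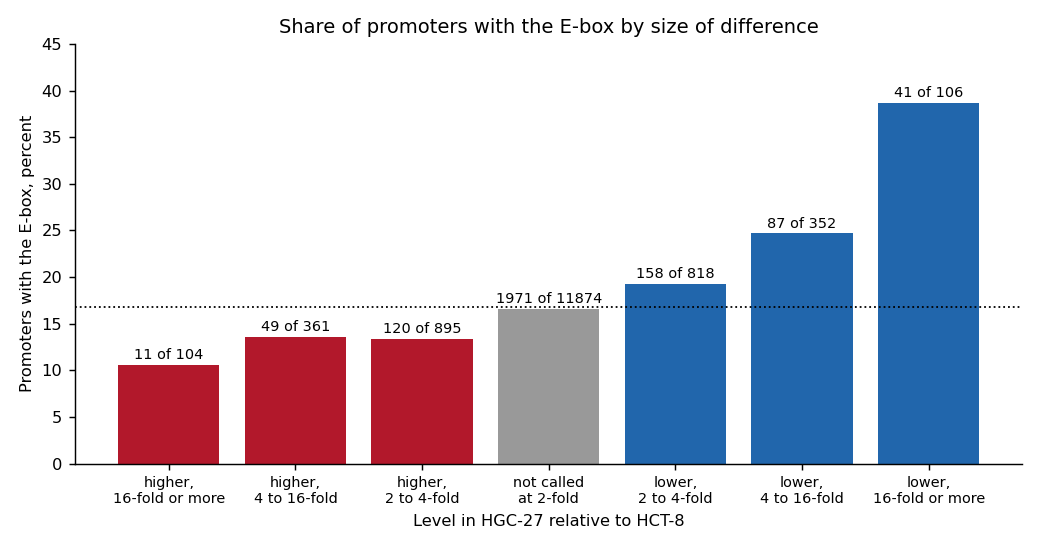
Percent of promoters (vertical axis) that hold CAGGTG or CACCTG in the 250 bases before the start site, in 7 bins of the difference between HGC-27 and HCT-8 (horizontal axis), with the number of genes over each bar and all 14510 genes as the dotted line. The share is 38.7% at the lower end and 10.6% at the higher end.

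The promoters of 4 lower genes show how these words lie. The genes were chosen after their words had been found, and the capitals mark CAGGTG or CACCTG. Of the 4, RAB17 and LGALS4 were among the 41 genes lower by 16-fold or more that held the word. CRB3 and OCLN were lower by less than 16-fold. KRT8, KRT18, KRT19, EPCAM and CDH1 were lower by 16-fold or more but were not among the 41. Either the word was absent from their 250 bases or no promoter was available for them, and which it was for each gene is not given here. Only 106 of the 148 genes lower by 16-fold or more had a promoter to search. No conclusion about E-boxes near these 5 genes can therefore be drawn. CRB3 holds 5 at chr19:6464021-6464270 (plus strand), RAB17, a small GTPase of polarized epithelia that averaged 0.82 in HGC-27 and 6.17 in HCT-8, holds 3 at chr2:237590735-237590984 (minus strand), and OCLN holds 1 at chr5:69492297-69492546 (plus strand). LGALS4, a galectin of the gut lining, holds 1 at chr19:38812946-38813195 (minus strand). Each sequence ends at the base before the start site.
CRB3: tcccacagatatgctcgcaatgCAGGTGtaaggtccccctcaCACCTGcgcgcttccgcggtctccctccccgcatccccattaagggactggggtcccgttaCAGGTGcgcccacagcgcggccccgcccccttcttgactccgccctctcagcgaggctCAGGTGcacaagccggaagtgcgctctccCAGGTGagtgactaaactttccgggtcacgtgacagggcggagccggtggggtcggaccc
RAB17: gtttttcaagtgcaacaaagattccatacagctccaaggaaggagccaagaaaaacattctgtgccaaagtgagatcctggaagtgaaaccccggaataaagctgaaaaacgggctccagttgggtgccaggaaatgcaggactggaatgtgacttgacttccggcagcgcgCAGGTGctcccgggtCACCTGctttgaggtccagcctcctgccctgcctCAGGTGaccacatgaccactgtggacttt
OCLN: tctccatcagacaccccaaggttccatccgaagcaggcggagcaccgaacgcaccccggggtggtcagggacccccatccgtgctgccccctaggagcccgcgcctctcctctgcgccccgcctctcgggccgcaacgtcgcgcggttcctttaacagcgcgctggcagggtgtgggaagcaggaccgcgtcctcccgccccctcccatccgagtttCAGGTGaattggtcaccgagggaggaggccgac
LGALS4: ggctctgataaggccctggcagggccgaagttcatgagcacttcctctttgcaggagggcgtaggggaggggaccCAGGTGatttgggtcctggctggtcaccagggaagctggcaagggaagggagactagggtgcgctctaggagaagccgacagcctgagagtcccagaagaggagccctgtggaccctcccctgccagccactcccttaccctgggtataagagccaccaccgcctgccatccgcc

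Mesenchymal markers were higher in HGC-27. Vimentin, VIM, the intermediate filament protein of mesenchymal cells, measured 11.62, 11.63 and 11.57 in HGC-27 and 6.37, 6.38 and 6.36 in HCT-8 arrays. It was thus well above background in both lines and 5.24 ± 0.047 higher in HGC-27 (SE, adjusted p = 1.45e-11 in limma). POSTN, the matrix protein periostin, measured 10.09, 10.05 and 9.99 in HGC-27 and 0.76, 0.86 and 0.73 in HCT-8 arrays. Of 30 mesenchymal markers 17 were higher and 4 lower, with a median difference of 1.65. The higher ones included DKK1, a secreted Wnt inhibitor, at 7.5 in HGC-27 and 1.71 in HCT-8, and the collagen cross-linking enzyme LOX at 5.77 in HGC-27 and 1.5 in HCT-8. The 4 lower ones were SERPINE2 at 1.94 in HGC-27 and 6.33 in HCT-8, NT5E at 0.81 in HGC-27 and 4.56 in HCT-8, PLAUR at 2.61 in HGC-27 and 5.08 in HCT-8 and S100A4 at 9.27 in HGC-27 and 11.33 in HCT-8. They encode a protease inhibitor, an ectonucleotidase, the urokinase receptor and a calcium-binding protein.

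Collagen genes and the enzymes that process them were higher, with 12 of 25 called against 1 called lower. COL3A1, a fibrillar collagen, measured 8.75, 8.77 and 8.78 in HGC-27 and 0.85, 0.73 and 0.83 in HCT-8 arrays. COL1A1 averaged 5.95 in HGC-27 and 1.31 in HCT-8, and its partner chain COL1A2 averaged 2.8 in HGC-27 and 1.05 in HCT-8. PLOD2, a lysyl hydroxylase of collagen, averaged 6.59 in HGC-27 and 0.83 in HCT-8. The basement membrane chain COL4A2 was the 1 lower member, at 1.38 in HGC-27 and 5.07 in HCT-8. Among 24 laminins and other matrix genes 9 were higher and 3 lower. LUM, the collagen-binding proteoglycan lumican, measured 8.38, 8.27 and 8.21 in HGC-27 and 0.64, 0.78 and 0.59 in HCT-8 arrays, and decorin, DCN, averaged 5.62 in HGC-27 and 0.89 in HCT-8. Fibronectin was low in both lines, with FN1 at 2.15 in HGC-27 and 1.14 in HCT-8. Laminin chains differed by kind: LAMA2 and LAMA1 averaged 5.76 in HGC-27 and 2.05 in HCT-8, and 3.97 in HGC-27 and 1.36 in HCT-8, whereas LAMB3, a chain of epithelial laminin, averaged 1.21 in HGC-27 and 3.25 in HCT-8. The integrin ITGA6, a laminin receptor of epithelia, averaged 3.0 in HGC-27 and 8.28 in HCT-8, and its partner ITGB4 averaged 1.92 in HGC-27 and 3.77 in HCT-8.

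The labelled cell types were checked against marker genes. Of 8 epithelial markers all were lower in HGC-27. In HGC-27, 6 of them averaged below the 25th percentile of all genes, taken on means over the 6 arrays of both lines. The summed linear intensity of the 8 was 26.2 to 27.2 in HGC-27 and 7889.9 to 7992.7 in HCT-8 (lowest to highest array). Of 7 stomach markers 2 were lower and none higher, with sums of 16 to 17.7 in HGC-27 and 124.2 to 126.5 in HCT-8, so HGC-27 did not show these markers of its labelled organ. All 6 intestinal markers were lower in HGC-27, with sums of 22.7 to 24.7 in HGC-27 and 732.7 to 756.9 in HCT-8, so HCT-8 showed the markers of its labelled organ. Of 9 fibroblast markers 7 were higher and none lower, with sums of 942.3 to 975.6 in HGC-27 and 21.3 to 22.2 in HCT-8. A longer list of 12, which adds POSTN among others, had 9 higher and none lower, with a median difference of 4.69. Its sums were 2118.1 to 2219.3 in HGC-27 and 28.1 to 28.8 in HCT-8. Of these 12 genes 11 also stand in the mesenchymal, collagen, matrix or other lists above and below. Whether other cells share the HGC-27 cultures was not tested. In those arrays 6 of the 8 epithelial markers lay below the 25th percentile, while CLDN4 and CLDN7 lay above it. Leukocyte and endothelial markers were low in both lines, with sums of 19.7 to 20.2 in HGC-27 and 20.1 to 21 in HCT-8 for 8 leukocyte genes and 14.8 to 15.1 in HGC-27 and 14.4 to 15 in HCT-8 for 6 endothelial genes. The sum of 10 hepatocyte markers was 22.5 to 23.1 in HGC-27 and 31.4 to 34.3 in HCT-8, with 2 lower in HGC-27.

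Intestinal identity genes were lower in HGC-27. CDX2 measured 3.61, 3.79 and 3.54 in HGC-27 and 7.24, 7.23 and 7.12 in HCT-8 arrays, and its relative CDX1 measured 1.17, 1.39 and 1.41 in HGC-27 and 6.34, 6.34 and 6.47 in HCT-8 arrays. CDX2 thus kept a level above the median gene in HGC-27, while CDX1 did not, and the differences were -3.55 ± 0.074 and -5.06 ± 0.076 (SE, adjusted p = 8.39e-10 and 1.23e-10 in limma). SOX9, a factor of intestinal crypts, averaged 1.28 in HGC-27 and 6.17 in HCT-8, and GATA6, a factor of endoderm, averaged 4.72 in HGC-27 and 6.93 in HCT-8. HOXB13 and GATA4 were the 2 members called higher, at 3.87 in HGC-27 and 2.11 in HCT-8, and 2.91 in HGC-27 and 1.64 in HCT-8. Of 28 intestinal and endodermal factors 17 were lower.

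The products of differentiated gut cells followed. LGALS4 measured 1.01, 0.92 and 0.92 in HGC-27 and 8.46, 8.46 and 8.47 in HCT-8 arrays, and CDH17, the liver-intestine cadherin, averaged 0.99 in HGC-27 and 6.6 in HCT-8. VIL1, which bundles actin in microvilli, averaged 0.98 in HGC-27 and 4.47 in HCT-8. Enterocyte and brush border genes were lower in 10 of 33 cases and higher in none. Goblet and secretory genes were lower in 7 of 20 and higher in none, with the trefoil peptide TFF3 at 0.8 in HGC-27 and 6.1 in HCT-8 and the mucin-folding protein AGR2 at 0.96 in HGC-27 and 6.2 in HCT-8. TSPAN8, a tetraspanin of gut tumors, averaged 0.81 in HGC-27 and 8.68 in HCT-8. It is 1 of 26 surface antigens and mucins of gut tumors, of which 10 were lower and 3 higher. Gastric lineage genes were lower in 4 of 22 cases and higher in none. TFF1, the trefoil peptide of gastric surface cells, measured 1.08, 1.2 and 1.11 in HGC-27 and 6.57, 6.5 and 6.52 in HCT-8 arrays, and TFF2 and the gastric protease CTSE averaged 1.34 in HGC-27 and 4.29 in HCT-8, and 1.17 in HGC-27 and 6.25 in HCT-8. The gastric genes that were called were thus those expressed in the colorectal line, and MUC6, a mucin of gastric glands, was low in both at 1.2 in HGC-27 and 1.48 in HCT-8.

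**Figure D4:**
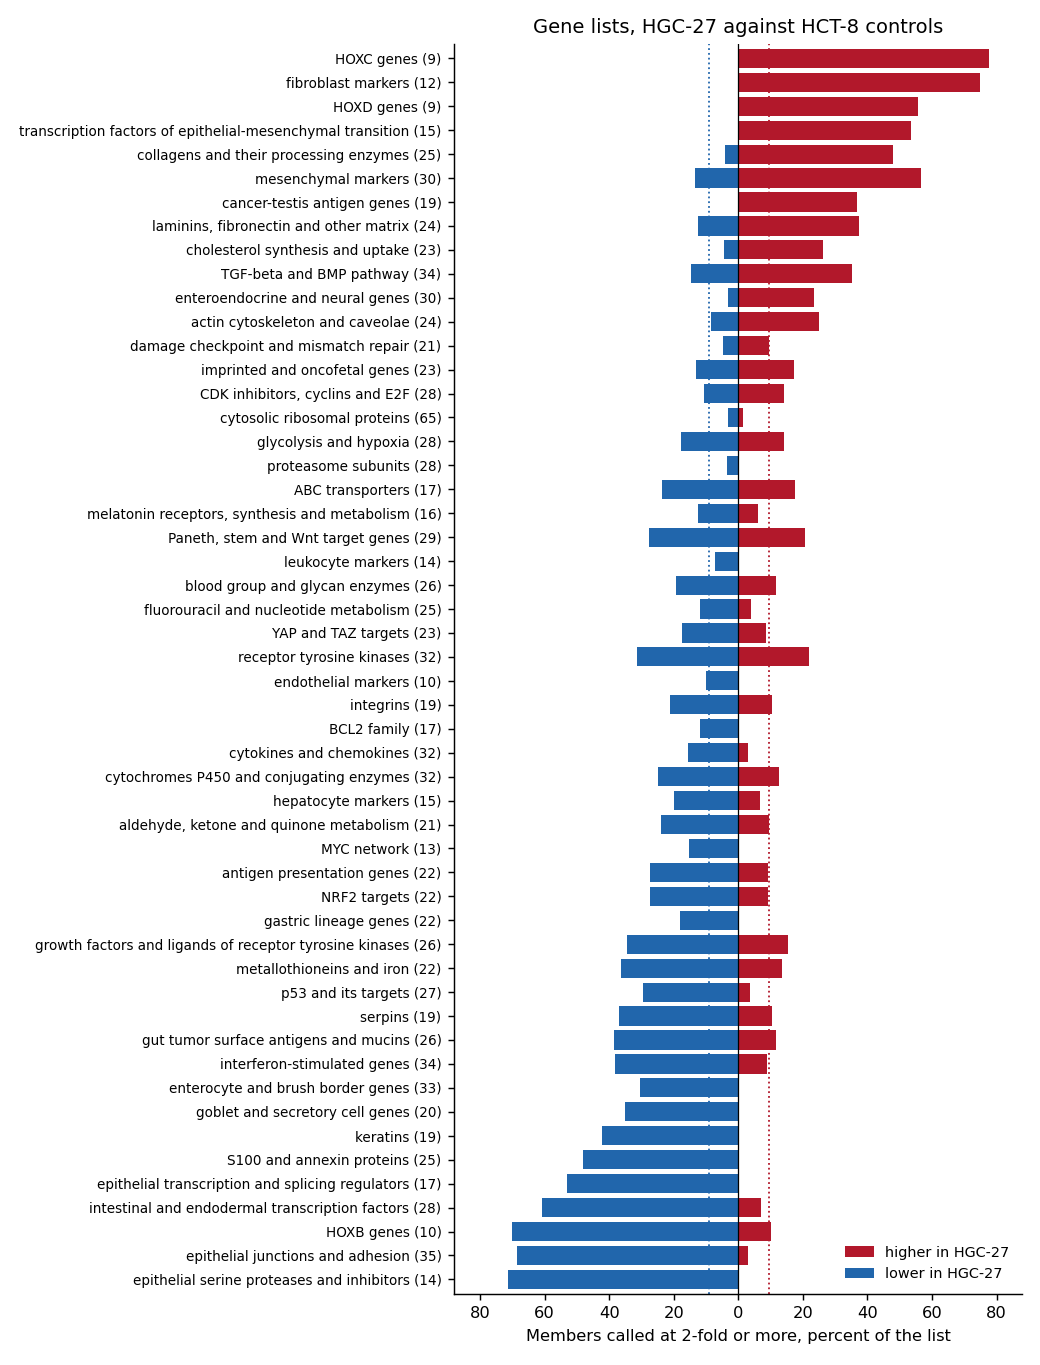
Percent of each list's measured members (number in parentheses) called at 2-fold or more, higher in HGC-27 to the right in red and lower to the left in blue. Lists are ordered by the percent higher minus the percent lower, and dotted lines mark the shares over all genes (9.47% and 8.97%). HOXC, fibroblast, HOXD and transition factor lists lie at the top and epithelial, HOXB and gut factor lists at the bottom, and the balance of the Wnt, glycolysis, BCL2 and ribosomal lists turned with the scaling even relative to all genes.

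HOX genes, which lie in clusters and record position along the body axis, were split by cluster. In the HOXB cluster of chromosome 17, 7 of 10 genes were lower and 1 was higher. HOXB6 measured 2.44, 1.98 and 2.23 in HGC-27 and 7.57, 7.66 and 7.68 in HCT-8 arrays, and HOXB9 averaged 5.45 in HGC-27 and 7.49 in HCT-8. HOXB13, at the far end of the cluster, measured 3.89, 3.88 and 3.83 in HGC-27 and 2.16, 2.2 and 1.96 in HCT-8 arrays and was the higher one. In the HOXC cluster of chromosome 12, 7 of 9 genes were higher and none lower. HOXC10 measured 5.46, 5.41 and 5.4 in HGC-27 and 1.08, 1.28 and 1.13 in HCT-8 arrays, and HOXC6, the brightest of the cluster in both lines, averaged 6.1 in HGC-27 and 4.46 in HCT-8. In the HOXD cluster of chromosome 2, 5 of 9 were higher and none lower, with HOXD13 at 5.43, 5.49 and 5.45 in HGC-27 and 1.21, 0.72 and 0.93 in HCT-8 arrays and HOXD11 at 5.5 in HGC-27 and 1.09 in HCT-8. The 3 clusters thus differed in opposite directions, and in HOXD the brightest genes of HGC-27 were HOXD10, HOXD11 and HOXD13.

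**Figure D5:**
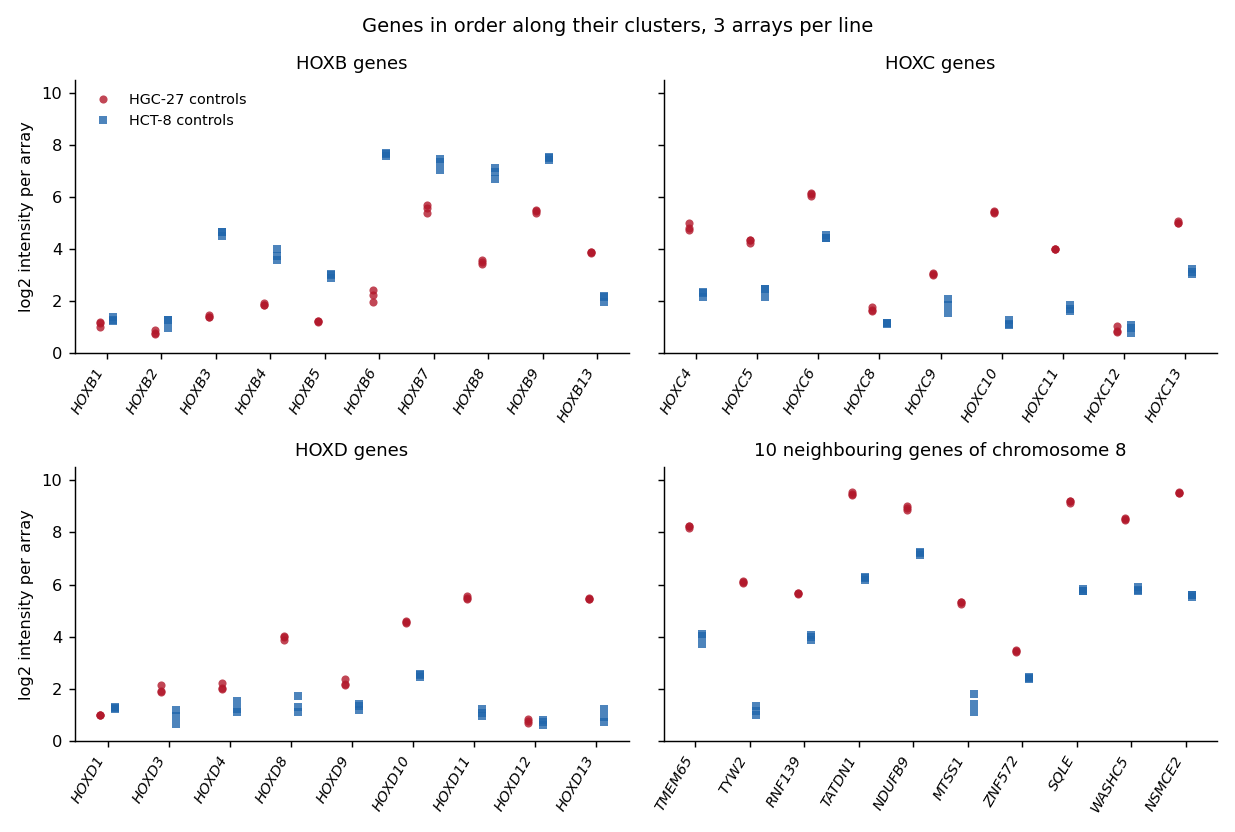
Log2 intensity per array (vertical axis) of the HOXB, HOXC and HOXD genes and of 10 neighbouring genes of chromosome 8, in chromosomal or cluster order, with 3 HGC-27 (red circles, left) and 3 HCT-8 (blue squares, right) control arrays. HOXB3 to HOXB9 are lower and most HOXC and HOXD genes higher in HGC-27, and the 10 chromosome 8 genes are all higher.

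Runs of neighbouring genes that differed the same way were searched in windows of 10 genes along each chromosome. These windows were picked by their values and carry no test. On chromosome 8, all 10 genes of TMEM65, TYW2, RNF139, TATDN1, NDUFB9, MTSS1, ZNF572, SQLE, WASHC5 and NSMCE2 were higher, by 1.05 to 4.94, and the 10 were also called higher in the melatonin arrays. SQLE, which oxidises squalene in cholesterol synthesis, measured 9.19, 9.22 and 9.14 in HGC-27 and 5.84, 5.75 and 5.76 in HCT-8 arrays. TATDN1, a deoxyribonuclease gene, averaged 9.49 in HGC-27 and 6.24 in HCT-8, and NSMCE2, a SUMO ligase of the SMC5/6 complex, averaged 9.52 in HGC-27 and 5.57 in HCT-8. MYC, on the same chromosome, averaged 8.92 in HGC-27 and 8.65 in HCT-8, a difference of 0.28 ± 0.054 (SE, adjusted p = 0.00181 in limma), and was not called at 2-fold. On chromosome 13, 8 of 10 genes between F7 and TFDP1 were lower, as many as in the window of the HOXB cluster, CUL4A among them at 5.33 in HGC-27 and 7.16 in HCT-8. On that chromosome 64 of 304 genes were lower (21.1%, against 8.97% of all genes), and 74 in the melatonin arrays. DNA copy number was not measured.

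Wnt pathway and crypt stem cell genes differed both ways. LGR5, the receptor that marks crypt stem cells, averaged 1.16 in HGC-27 and 5.13 in HCT-8, ASCL2, a factor of the same cells, averaged 2.2 in HGC-27 and 6.42 in HCT-8, and AXIN2, a feedback target of Wnt signaling, averaged 3.6 in HGC-27 and 5.25 in HCT-8. APCDD1, an inhibitor of Wnt reception, averaged 6.85 in HGC-27 and 2.39 in HCT-8, and LEF1, which acts with beta-catenin, averaged 3.81 in HGC-27 and 1.34 in HCT-8. Of 29 genes 6 were higher and 8 lower. The TGF-beta and BMP pathway had 12 of 34 genes higher and 5 lower, with a median difference of 0.26. Its ligand BMP5 averaged 5.47 in HGC-27 and 1.01 in HCT-8, and NOG, the BMP antagonist noggin, averaged 5.67 in HGC-27 and 1.09 in HCT-8. TGFBR2, the type II receptor for TGF-beta, measured 1.25, 1.31 and 1.16 in HGC-27 and 6.95, 6.82 and 6.71 in HCT-8 arrays a difference of -5.59 ± 0.072 (SE, adjusted p = 5.27e-11 in limma). BMP4, high in both lines, averaged 5.26 in HGC-27 and 9.04 in HCT-8.

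Receptor tyrosine kinases also differed in kind. The collagen receptor DDR2 averaged 6.02 in HGC-27 and 1.11 in HCT-8, and its epithelial relative DDR1 averaged 4.27 in HGC-27 and 5.38 in HCT-8. ERBB3, a partner of ERBB2, averaged 1.76 in HGC-27 and 4.68 in HCT-8, and MET, the receptor of hepatocyte growth factor, averaged 3.06 in HGC-27 and 5.08 in HCT-8. Of 32 receptors 7 were higher and 10 lower. Among 26 ligands 4 were higher and 9 lower, with PDGFC at 6.04 in HGC-27 and 1.14 in HCT-8 and TGFA, a ligand of EGFR, at 1.36 in HGC-27 and 3.28 in HCT-8. DUSP6, a phosphatase that ERK signaling induces, measured 1.04, 1.03 and 1.01 in HGC-27 and 8.49, 8.43 and 8.39 in HCT-8 arrays. GNAS, which encodes the stimulatory G protein alpha subunit, measured 1.37, 1.43 and 1.46 in HGC-27 and 9.11, 9.12 and 8.99 in HCT-8 arrays, and its 5 probe sets were all lower in HGC-27. GNG11, a G protein gamma subunit, averaged 7.17 in HGC-27 and 0.77 in HCT-8.

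Cell cycle inhibitors showed a contrast. CDKN2A, which encodes p16 and ARF, measured 8.45, 8.44 and 8.47 in HGC-27 and 1.52, 1.5 and 1.28 in HCT-8 arrays. CCND2, a D-type cyclin, measured 7.49, 7.63 and 7.5 in HGC-27 and 1.19, 1.24 and 1.06 in HCT-8 arrays, and CCND1 averaged 6.31 in HGC-27 and 7.32 in HCT-8. CDKN1A, which encodes p21, averaged 4.58 in HGC-27 and 6.95 in HCT-8. Among 27 p53 pathway genes 8 were lower, CDKN1A among them, and 1 higher, with PHLDA3 and GDF15 at 2.0 in HGC-27 and 5.33 in HCT-8, and 2.84 in HGC-27 and 5.39 in HCT-8. Of 28 CDK inhibitors, cyclins and E2F genes 4 were higher and 3 lower. In damage checkpoint and mismatch repair, 2 of 21 genes were higher and 1 lower. Over all genes 9.47% were called higher and 8.97% lower, and the counts of these last 2 lists were near those shares. MSH6, part of the mismatch recognition complex, measured 7.97, 7.91 and 7.88 in HGC-27 and 3.21, 2.94 and 3.1 in HCT-8 arrays, a difference of 4.84 ± 0.074 (SE, adjusted p = 1.33e-10 in limma). ATR, a damage checkpoint kinase, averaged 4.64 in HGC-27 and 5.2 in HCT-8, and CHEK1, its target, did not pass at 6.0 in HGC-27 and 6.04 in HCT-8 (adjusted p = 0.46 in limma).

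Cancer-testis antigen genes, whose expression is normally confined to germ cells, were higher in 7 of 19 cases and lower in none. MAGEA4 measured 8.09, 8.11 and 8.09 in HGC-27 and 0.9, 1.02 and 0.99 in HCT-8 arrays, and CTAG2 measured 7.94, 7.91 and 8.02 in HGC-27 and 1.55, 1.68 and 1.47 in HCT-8 arrays. PRAME averaged 6.18 in HGC-27 and 0.86 in HCT-8. The list's median difference was 0.17, since the other 12 members were not called. Imprinted and oncofetal genes had 4 of 23 higher and 3 lower, a balance of 3 against 4 with the brightest probe set of each gene, with PEG10, a retrotransposon-derived gene, at 6.18 in HGC-27 and 1.23 in HCT-8 and MEST, an imprinted hydrolase gene, at 1.6 in HGC-27 and 7.74 in HCT-8. A neural transcript, ELAVL2, an RNA-binding protein of neurons, averaged 7.16 in HGC-27 and 0.88 in HCT-8, and 7 of 30 enteroendocrine and neural genes were higher against 1 lower.

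More of the immune genes were lower than higher in HGC-27. The alarmin IL33 measured 0.78, 0.97 and 0.73 in HGC-27 and 7.03, 6.9 and 7.0 in HCT-8 arrays, and IL18, an inflammasome cytokine, averaged 0.63 in HGC-27 and 5.59 in HCT-8. CCL2, a monocyte chemokine, was the 1 higher of 32 cytokine and chemokine genes, at 6.54, 6.53 and 6.48 in HGC-27 and 0.92, 0.62 and 0.91 in HCT-8 arrays, and 5 were lower. Interferon-stimulated genes were lower in 13 of 34 cases and higher in 3, with ISG15, a ubiquitin-like modifier, at 4.59 in HGC-27 and 7.87 in HCT-8 and IFI27 at 2.9 in HGC-27 and 7.13 in HCT-8. BST2, which tethers budding virus, was higher at 4.09 in HGC-27 and 1.45 in HCT-8. Of its 4 probe sets 3 were higher and 1 lower, from -0.34 to 3.98 relative to the median probe set. In antigen presentation 2 of 22 genes were higher and 6 lower. B2M, the light chain of class I molecules, averaged 9.71 in HGC-27 and 8.18 in HCT-8, and HLA-C averaged 4.37 in HGC-27 and 8.47 in HCT-8, but HLA probe sets can depend on the alleles of a line.

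The study also asked about fluorouracil, a drug that blocks thymidylate synthesis. TYMS, its target thymidylate synthase, averaged 9.6 in HGC-27 and 9.0 in HCT-8 and was 0.6 ± 0.047 higher (SE, adjusted p = 4.59e-06 in limma). DPYD, which degrades the drug, averaged 2.66 in HGC-27 and 0.85 in HCT-8 and was the 1 called higher of 25 genes. CDA, a cytidine deaminase, averaged 1.39 in HGC-27 and 5.67 in HCT-8, and UPP1, a uridine phosphorylase, averaged 1.87 in HGC-27 and 4.17 in HCT-8, and with UNG they were the 3 called lower. Melatonin receptors were low in both lines. MTNR1A measured 1.38, 1.35 and 1.25 in HGC-27 and 1.31, 1.61 and 1.75 in HCT-8 arrays, and MTNR1B averaged 1.05 in HGC-27 and 1.21 in HCT-8, and neither difference passed (adjusted p = 0.0878 and 0.0897 in limma). Of 16 genes of melatonin reception, synthesis and metabolism, CYP1B1, which hydroxylates melatonin and estrogens, was higher at 7.12 in HGC-27 and 2.11 in HCT-8, and RORA, a nuclear receptor discussed as a melatonin target, was lower at 0.95 in HGC-27 and 5.33 in HCT-8, as was DDC at 1.67 in HGC-27 and 4.08 in HCT-8.

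Detoxifying enzymes differed gene by gene. GPX2, the glutathione peroxidase of gut epithelium, averaged 2.15 in HGC-27 and 7.36 in HCT-8, AKR1B10, an aldose reductase relative, averaged 1.13 in HGC-27 and 5.01 in HCT-8, and ALDH3A1, an aldehyde dehydrogenase, averaged 5.28 in HGC-27 and 8.65 in HCT-8. MGST1, a microsomal glutathione transferase, averaged 6.75 in HGC-27 and 1.19 in HCT-8. Among 22 NRF2 targets 2 were higher and 6 lower. Cholesterol synthesis and uptake had 6 of 23 genes higher and 1 lower, with a median difference of 0.54. Beside SQLE these included LSS, which closes the sterol rings, at 4.93 in HGC-27 and 3.29 in HCT-8, HMGCS1 at 7.06 in HGC-27 and 5.96 in HCT-8 and the regulator SREBF2 at 5.28 in HGC-27 and 3.93 in HCT-8. The glucose transporter SLC2A1 averaged 4.08 in HGC-27 and 7.72 in HCT-8. BIK, a pro-apoptotic BCL2 relative, averaged 2.74 in HGC-27 and 6.78 in HCT-8, and BAX averaged 5.85 in HGC-27 and 6.35 in HCT-8. The 2 probe sets of BAX lay on opposite sides, at -0.86 and 0.28 relative to the median probe set.

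Genes that every cell uses differed by small amounts. Of 65 ribosomal protein genes 16 were higher and 21 lower past the adjusted p alone, but 1 was called higher and 2 lower at 2-fold, with a median difference of 0.01. Of 28 proteasome genes 5 were higher and 16 lower past the adjusted p alone, and 1 was called lower at 2-fold, with a median difference of -0.22. GAPDH averaged 11.63 in HGC-27 and 11.5 in HCT-8. In 2096 of 2316 called genes with more than 1 probe set (90.5%) every probe set lay on the same side, and 1052 called genes had 1 probe set only.

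The melatonin-treated arrays of the same lines gave further samples that the comparison above had not used. In them 3495 genes (19.1%) were called, 9.77% higher and 9.37% lower in HGC-27. Of the 1730 genes called higher in the controls 1469 (84.9%) were called higher there, and of the 1638 called lower 1423 (86.9%) were called lower there, while 0 were called the opposite way at 2-fold in limma. The sign was the other one in 5 genes at any p and in 2 of them past the adjusted p, ALDH6A1 and CCDC80. ALDH6A1 differed by 0.22 in the melatonin arrays and -1.01 in controls, and CCDC80 by -0.21 in the melatonin arrays and 1.22 in controls (adjusted p = 0.0179 and 0.0115 in limma).

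The liver lines put some of these levels in context, with the control arrays of all 4 lines normalized together. KRT18 averaged 1.32 in HGC-27 and 11.5 in HCT-8, beside 11.59 in Huh-7 and 10.66 in HepG2, and EPCAM averaged 0.99 in HGC-27 and 10.08 in HCT-8, beside 9.62 in Huh-7 and 8.89 in HepG2. The low levels thus belonged to HGC-27 among the lines measured. TWIST1 averaged 9.08 in HGC-27 and 0.93 in HCT-8, beside 0.92 in Huh-7 and 1.0 in HepG2, and POSTN averaged 10.2 in HGC-27 and 0.84 in HCT-8, beside 0.93 in Huh-7 and 0.87 in HepG2, which set HGC-27 apart in the other direction. LGALS4 averaged 1.04 in HGC-27 and 8.67 in HCT-8, beside 1.19 in Huh-7 and 1.12 in HepG2, a pattern in which HCT-8 was the line apart. MSH6 averaged 8.15 in HGC-27 and 3.29 in HCT-8, beside 7.45 in Huh-7 and 7.27 in HepG2, so here too HCT-8 stood alone. VIM averaged 11.59 in HGC-27 and 6.58 in HCT-8, beside 6.26 in Huh-7 and 1.08 in HepG2, an order in which HCT-8 and Huh-7 lay between HGC-27 and HepG2. GNAS averaged 1.58 in HGC-27 and 9.27 in HCT-8, beside 9.48 in Huh-7 and 10.09 in HepG2. CDX2 averaged 3.84 in HGC-27 and 7.42 in HCT-8, beside 7.25 in Huh-7 and 2.17 in HepG2, and the liver line Huh-7 was thus near HCT-8. FN1 averaged 2.36 in HGC-27 and 1.26 in HCT-8, beside 7.22 in Huh-7 and 9.2 in HepG2, with the 2 gut lines below both liver lines. HGC-27 minus Huh-7 had an adjusted p of 1.51e-19 for KRT18, 4.69e-19 for EPCAM, 1.92e-16 for TWIST1 and 5.46e-19 for POSTN (limma over the 12 control arrays).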

How the data were processed

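RNA of 24 cell samples was hybridized to customized PrimeView arrays, and the values the authors deposited are log2 intensities from RMA, a method that corrects background and summarises probes per probe set (version not given in the sources used here). Of 49495 probe sets, 45342 had 1 gene symbol, 1275 several and 2878 none, and after 6 control probe sets were removed the mean of 45336 probe sets gave 18265 genes. The genes of the 6 control arrays were quantile normalized and tested with lmFit and eBayes of limma 3.58.1 (R 4.3.3), and p-values were adjusted over all genes by Benjamini-Hochberg. The script was tested on simulated data. The number of arrays limits the precision. The members and gene lists were chosen with earlier results of these data known. The genes named are the 25 highest and 25 lowest called genes, up to 6 called members of each list and direction, and a fixed set of drug target, checkpoint, melatonin receptor, keratin, cadherin and vimentin genes. Of those given here CLDN7, COL1A2, CRB3, CUL4A, DDR1, DSP, FN1, GAPDH, GATA6, KRT7, KRT14, LOX, MUC6, NSMCE2, OCLN, RAB17, SNAI1, TATDN1, VIL1, ZEB2, ALDH6A1 and CCDC80 were outside that rule and were chosen after their values were seen, as were the chromosome windows. Alternatives were other normalizations, centring, probe set choice, a filter on low genes, other spreads, the methods' t-test, a replicate block and leaving out each array. The labels name Trizol and the study's methods another kit for RNA extraction. Tumor tissue data of the study were not used here.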

Additional observations from a re-analysis of the deposited data

Results flagged for a closer look

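Whether the difference between the lines changed with melatonin was tested by the interaction of line and treatment in limma over the 12 arrays of both lines, normalized together. The labels place controls at 0 h and treated cells at 24 h, so by the labels melatonin and time in culture cannot be told apart here. In this fit 4195 genes passed an adjusted p of 0.05 (23% of all genes), among them 1422 of the 3368 genes called in the controls (42.2%). The differences between the lines given here come from that joint fit and so depart slightly from those of the controls alone. LUM, CDKN1A and CCL2 were chosen after their values were seen. CCL2 was higher in HGC-27 than in HCT-8 by 1.24 in melatonin arrays and by 5.7 in controls, so the difference changed by -4.46 (adjusted p = 7.6e-11 in limma). LUM was higher by 6.27 in melatonin arrays and by 7.6 in controls, a change of -1.33 (adjusted p = 9.05e-06 in limma). POSTN was higher by 8.58 in melatonin arrays and by 9.23 in controls, a change of -0.64, and COL3A1 by 7.37 in melatonin arrays and by 7.97 in controls, a change of -0.60 (adjusted p = 3.39e-05 and 2.56e-05 in limma). CDKN1A differed by -0.94 in melatonin arrays and by -2.31 in controls, a change of 1.37 (adjusted p = 1.9e-06 in limma). KRT20 differed by -3.33 in melatonin arrays and by -4.12 in controls, a change of 0.79, and KRT8 by -9.53 in melatonin arrays and by -9.15 in controls, a change of -0.38 (adjusted p = 0.00336 and 0.000619 in limma). CDH1, EPCAM, VIM, ZEB1 and TWIST1 did not pass this test, with adjusted p-values of 0.536, 0.238, 0.586, 0.214 and 0.223 in limma.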

How the results depend on the processing

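The counts depended on the scaling of the arrays. In the values as deposited 14576 genes were higher and 1964 lower past the adjusted p, and 5258 at 2-fold (4479 higher, 779 lower), of which 3953 higher and 693 lower ones were called in the melatonin arrays too. Centring on the ERCC probe sets gave 17992 genes (530 higher, 17462 lower) and 16746 at 2-fold (313 higher, 16433 lower). Less the median difference of all genes, an alternative added after the data were seen, the values as deposited gave 3552 genes at 2-fold, 64.5% of them higher, and shared 2987 of the 3368 called genes (88.7%), while the ERCC centring gave 3923 lower genes past the adjusted p. Centring on the array median gave 9940 lower genes. A test against 1.5-fold gave 4591 genes (2343 higher, 2248 lower). The cause was not tested. In the values as deposited the sign turned for ATR (0.23), BAX (0.23) and MUC6 (0.17). With the ERCC centring it turned for B2M (-0.44), CLDN15 (-0.88), COL1A2 (-0.35), DPYD (-0.32), FN1 (-1.14), GAPDH (-1.92), GATA4 (-0.75), HMGCS1 (-0.86), HOXB13 (-0.21), HOXC6 (-0.28), LSS (-0.25), MYC (-1.68), SREBF2 (-0.54) and TYMS (-1.37). Without each array in turn, 10838 to 11834 genes passed (5337 to 5787 higher, 5493 to 6047 lower) and 3348 to 3370 at 2-fold (1708 to 1726 higher, 1629 to 1649 lower), of which 1452 to 1468 higher and 1419 to 1432 lower ones were called in the melatonin arrays. With the replicate number as a block 11745 genes passed (5738 higher, 6007 lower). Samples with the same number correlated in their deviations at 0.07, -0.02 and 0.04. With 3 arrays per line these values cannot tell whether cultures of the same number were handled together. The other 137 counts under alternatives stayed within 1.5 times. The deposited scale turned 14 lists and the ERCC centring 14. Relative to all genes 4 lists turned (BCL2, Wnt, ribosomal and glycolysis). With the probe set of the highest mean the imprinted and oncofetal list turned, to 3 higher and 4 lower. The number of arrays limits the precision, and levels near background limit what the low genes can show.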
